A study of Mus musculus with 48 samples.

Results

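Pparg, Cebpa, Fabp4, Lpl, Cd36, Slc2a4, Dgat1, Dgat2, Gpam and Agpat2 are genes that make an adipocyte recognisable or that bring fatty acids and glucose into it and build triglyceride from them. They were taken by symbol from the deposited count table, and all 10 were found among its 30055 gene symbols. Slc2a4 serves glucose rather than lipid uptake, and Dgat1, Dgat2, Gpam and Agpat2 serve triglyceride synthesis, so the set is wider than the working name of adipocyte identity and lipid uptake. Stranded polyA RNA-seq was done on the visceral white fat and the liver of C57BL6/J mice. At 8 weeks of age the mice either stayed on a regular chow (RD) or were given a high-fat diet (HFD) with 45% of its calories from fat. One cohort was taken after 2 weeks and another after 12 weeks, each with males and females on both diets, which gives 16 groups of 3 libraries. The labels name no allele, transgene or drug, and they do not name the visceral depot. Differences between 2 and 12 weeks also differ in cohort and age, which cannot be told apart from time on the diet. Levels between those times are therefore given without a test.

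PPARγ, the product of Pparg, and C/EBPα, the product of Cebpa, are the nuclear receptor and the bZIP factor that switch on and keep up the fat cell programme, and each raises the other's expression. Lipoprotein lipase (Lpl) frees fatty acids from circulating triglyceride at the capillary wall, CD36 passes them through the plasma membrane, and FABP4 carries them in the cytosol. GLUT4, the product of Slc2a4, is the insulin-regulated glucose transporter of fat and muscle. GPAM adds the first fatty acid to glycerol-3-phosphate, AGPAT2 adds the next, and DGAT1 and DGAT2 add the last to make triglyceride. Liver also makes triglyceride, and in fatty liver of mice hepatic Pparg and Cd36 are known to be raised.

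Library totals ran from 44.7 to 105.4 M expected counts in adipose tissue and from 50.9 to 80.1 M in liver. Adipoq, which encodes the fat cell hormone adiponectin, had 880 to 4012 CPM (the count as a rate of the library total, scaled by edgeR's TMM factors within the tissue) in the adipose libraries and at most 2.62 CPM in liver. Plin1, a lipid droplet protein of fat cells, was at 0 in every liver library, and Alb (albumin) had at least 37871 CPM there. Some adipose libraries of the 2-week cohort stand apart from their groups by markers of other cells. HFD female 1 at 2 weeks had a summed level of 2342 CPM over 12 epithelium markers, where HFD females 2 and 5 had 80.2 and 71.0 CPM. Its 25 other adipocyte genes summed to 8419 CPM, against 27675 and 24382 CPM. The 15 epididymis markers summed to 11941, 3.66 and 2692 CPM in RD males 6, 7 and 8 at 2 weeks and to 6.74, 8099 and 13.3 CPM in HFD males 12, 13 and 14. At 12 weeks they summed to 3624 to 5473 CPM in the RD males and 2.26 to 8.31 CPM in the HFD males. Adipose results are therefore also given without HFD female 1, RD males 6 and 8 and HFD male 13 of the 2-week cohort where this changes them. RD male 7 is then alone in its group, and the 12-week RD males stay in. In whole tissue, fewer cells of a type and less RNA per cell cannot be told apart. The labels do not say what a library number stands for, so p-values measure the spread between these libraries.

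RefSeq promoter windows on GRCm38.p6 matched 5 of the 10 genes. The 250 bases before a start are shown for the transcription factor genes and for Cd36, for the outermost of 3 listed Pparg starts, because these are the regulators of the set and the gene with the largest sex difference called in liver. Capitals mark matches, on either strand, to the nuclear receptor half-site AGGTCA, the C/EBP core TTGCNNAA, the TATA core TATAAA and the CCAAT box.
Pparg, most upstream start, chr6:115360894-115361143, plus strand: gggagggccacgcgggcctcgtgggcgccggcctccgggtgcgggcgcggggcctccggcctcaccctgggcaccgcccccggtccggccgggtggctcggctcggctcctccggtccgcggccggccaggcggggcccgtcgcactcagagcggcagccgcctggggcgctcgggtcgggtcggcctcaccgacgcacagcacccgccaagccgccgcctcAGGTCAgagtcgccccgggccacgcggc
Pparg, most downstream start, chr6:115421816-115422065, plus strand: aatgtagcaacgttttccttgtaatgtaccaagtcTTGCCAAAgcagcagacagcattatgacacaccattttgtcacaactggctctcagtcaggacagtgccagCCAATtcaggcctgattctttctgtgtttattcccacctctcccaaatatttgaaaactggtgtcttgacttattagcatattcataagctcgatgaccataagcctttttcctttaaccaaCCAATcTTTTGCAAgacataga
Cebpa, chr7:35119043-35119292, plus strand: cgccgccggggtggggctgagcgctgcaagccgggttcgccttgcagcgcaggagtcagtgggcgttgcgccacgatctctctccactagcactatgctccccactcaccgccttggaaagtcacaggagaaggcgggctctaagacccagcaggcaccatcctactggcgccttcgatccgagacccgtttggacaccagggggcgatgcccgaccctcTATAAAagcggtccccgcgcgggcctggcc
Cd36, chr5:17835897-17836146, minus strand: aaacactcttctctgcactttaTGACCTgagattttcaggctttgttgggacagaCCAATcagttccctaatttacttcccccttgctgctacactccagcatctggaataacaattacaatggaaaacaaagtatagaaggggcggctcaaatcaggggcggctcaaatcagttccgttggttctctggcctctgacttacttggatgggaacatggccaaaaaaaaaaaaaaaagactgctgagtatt
The window before the most downstream Pparg start held TTGCNNAA matches at -215 to -208 and at -16 to -9 relative to the start, and a CCAAT box beside the second of them. The window before the most upstream start held the half-site at -28 to -23, and that of the start between them, not shown, held it at -9 to -4, with TATAAA at -29 to -24 and CCAAT at -83 to -79. Cebpa had TATAAA at -30 to -25, and Cd36 had the half-site at -228 to -223 and CCAAT at -195 to -191. Over all 32851 windows of 250 bases, AGGTCA was found in 14.0%, TTGCNNAA in 9.56%, TATAAA in 12.4% and CCAAT in 33.8%. The direct repeat of AGGTCA with 1 base between, the PPAR-RXR element, was found in 0.0335% of windows and in none of the 5 genes' windows. The Cd36 start of this window, 17835896, lies inside the GENCODE M21 bounds of the gene (17781690 to 17888801, minus strand). A match is a description of the letters and not a binding site, and the counts per gene do not separate starts of Pparg or Cd36.

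The 10 genes spanned a wide range of levels in adipose tissue. Per kilobase of the longest coding transcript in GENCODE M21, Fabp4 had a mean level of 11096 CPM over the 24 adipose libraries. Lpl followed with 2373 CPM per kilobase, Dgat2 with 868, Cd36 with 735, Agpat2 with 352 and Cebpa with 276 CPM per kilobase. Dgat1 had 98.9, Slc2a4 73.6, Pparg 56.0 and Gpam 3.70 CPM per kilobase. Fabp4 was above all other members in its lowest group mean (8670 CPM per kilobase), and Lpl came next in its lowest group (1706 CPM per kilobase). The ranges of the group means overlapped among Dgat2 (425 to 1236), Cd36 (617 to 913) and Agpat2 (132 to 831 CPM per kilobase), between Agpat2 and Cebpa (227 to 385), and among Dgat1 (73.6 to 154), Slc2a4 (46.2 to 137) and Pparg (34.6 to 76.6 CPM per kilobase), so these neighbours have no fixed order. Gpam lay below all of them, at 1.90 to 4.93 CPM per kilobase.

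Liver had another order, led by Dgat2. Dgat2 had a mean of 194 CPM per kilobase over the 24 liver libraries, Cebpa 126 and Agpat2 97.6 CPM per kilobase. Cd36 (14.6), Fabp4 (9.70), Dgat1 (7.25) and Lpl (7.03 CPM per kilobase) formed a middle group whose group means overlapped. Pparg had 3.37, Gpam 0.932 and Slc2a4 0.175 CPM per kilobase. As a ratio of the highest to the lowest group mean, Cd36 (7.27), Gpam (7.14) and Slc2a4 (7.08) varied most among the 8 liver groups. Cd36 went from 10.2 CPM in RD males at 2 weeks to 74.2 CPM in HFD females at 12 weeks. Dgat1 had the smallest ratio (1.25), from 11.8 to 14.8 CPM. Gpam was uneven among liver replicates. It had 0 expected counts in HFD female 5 at 2 weeks and in HFD male 4 at 12 weeks and reached 20.6 CPM in RD male 8 at 2 weeks. A value of 0 in estimated counts can be a failed estimate, so no level of Gpam in liver is read from single libraries.

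Adipose tissue and liver were compared over all 48 libraries with 1 scaling, to ask which of these genes is higher in which tissue. With edgeR's quasi-likelihood test 9 of the 10 members were called, all higher in adipose tissue, beside 80.4% of 18800 genes called. Fabp4 had 2119 to 8884 CPM in adipose tissue (median 7075) and 7.23 to 28.1 CPM in liver (median 11), a log2 difference of 9.11. Slc2a4 was higher by 7.73, Lpl by 7.41, Cd36 by 4.83, Pparg by 3.03 and Dgat1 by 2.64 on the log2 scale. For these 6 genes no adipose library overlapped a liver library. The share of all genes without overlap was not counted, here or in the comparisons below. Gpam was higher by 1.09, Dgat2 by 1.03 and Agpat2 by 0.57, and their libraries overlapped. Dgat2, for example, had 216 to 2698 CPM in adipose tissue and 458 to 873 CPM in liver. Cebpa was the member not called, at 166 to 787 CPM in adipose tissue (median 489) and 319 to 631 CPM in liver (median 473), with a log2 difference of 0.05. The median of all genes was 0.17 with TMM and 0.23 with median-of-ratios scaling. Each adipose group carries the same library numbers as its liver group, and the test above did not pair them. With the number as a block 9 members were again called, with Gpam higher by 1.51, Dgat2 by 0.89 and Agpat2 by 0.50. Deviations from the group means in same-numbered libraries of the tissues had a median r of 0.032, from -0.12 to 0.163.

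High-fat feeding in adipose tissue was first tested in each sex and at each time, each against its own RD controls. No member was called in any of the 4 comparisons by edgeR. At 2 weeks this was beside 0.235% of 18325 genes called in females and 0% in males. An unadjusted p under 0.05 by edgeR was found for 3 and 2 members, beside 3969 and 2022 of all genes. DESeq2 called 3 members in females at 2 weeks, namely Agpat2, Slc2a4 and Dgat1, and none in males. At 12 weeks no member was called beside 2.08% of genes in females, and DESeq2 called none. In these females 2 members and 2649 of all genes had an unadjusted p under 0.05 by edgeR. In males at 12 weeks 28.2% of genes were called, and 7685 of 18325 had an unadjusted p under 0.05 by edgeR. None of the 10 members had such a p or a DESeq2 call. The median log2 difference of the members in that comparison was 0.14, against -0.11 for all genes tested. In that comparison the epididymis markers summed to 3624 to 5473 CPM in the RD males and 2.26 to 8.31 CPM in the HFD males. Their part in these counts and medians was not tested.

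Agpat2 (chromosome 2, 26593057 to 26604417, minus strand) had the largest diet differences of the 10 genes in the 2-week adipose groups. In 2-week females it had 1204, 957 and 1554 CPM in RD libraries 1, 2 and 4, and 111, 515 and 586 CPM in HFD libraries 1, 2 and 5. All HFD libraries lay below all RD libraries. In 2-week males it had 736, 576 and 448 CPM in RD libraries 6, 7 and 8, and 275, 139 and 175 CPM in HFD libraries 12, 13 and 14, again without overlap. The log2 differences were -1.62 ± 0.49 (SE, edgeR adjusted p = 0.097) in females and -1.58 ± 0.49 (adjusted p = 0.36) in males. Without the 4 libraries that stand apart, among them HFD female 1, these differences were -1.16 and -1.35. At 12 weeks RD females had 793, 1112 and 288 CPM and HFD females 286, 418 and 316 CPM, so RD female 8 lay among the HFD libraries. The 12-week males had 358, 514 and 376 CPM on RD and 326, 285 and 225 CPM on HFD, without overlap. The differences were -1.10 ± 0.48 (adjusted p = 0.30) and -0.58 ± 0.48 (adjusted p = 0.37). On the opposite strand Egfl7 ends at 26593120 and so overlaps only the end of Agpat2. Gm20532 (26586639 to 26635634, opposite strand) also overlaps it, with at most 25.0 expected counts in a library. No source used here says whether the authors' counting used strand, so reads of Agpat2 from the overlaps may be shared.

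Slc2a4 and Dgat1 had differences of the same direction in most groups. Slc2a4 had 299, 298 and 444 CPM in 2-week RD females and 59.7, 192 and 239 CPM in HFD females, and 177, 212 and 188 against 144, 93.0 and 125 CPM in 2-week males. Neither pair of groups overlapped. At 12 weeks it had 293, 322 and 133 CPM in RD females against 159, 159 and 150 CPM in HFD females, and 168, 153 and 99.2 against 149, 107 and 94.7 CPM in males, and both pairs overlapped. Its log2 differences in these 4 comparisons were -1.08, -0.67, -0.68 and -0.27, and the first was -0.68 without the 4 libraries that stand apart, among them HFD female 1. Dgat1 had 210, 347 and 314 CPM in 2-week RD females and 89.8, 233 and 190 CPM in HFD females, with HFD female 2 above RD female 1. In 12-week females it had 263, 255 and 204 CPM on RD and 162, 150 and 175 CPM on HFD, without overlap. Its log2 differences were -0.77 and -0.59 at 2 weeks and -0.56 and 0.00 at 12 weeks, females before males, and that of the 2-week females was -0.45 without the 4 libraries.

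**Figure D1:**
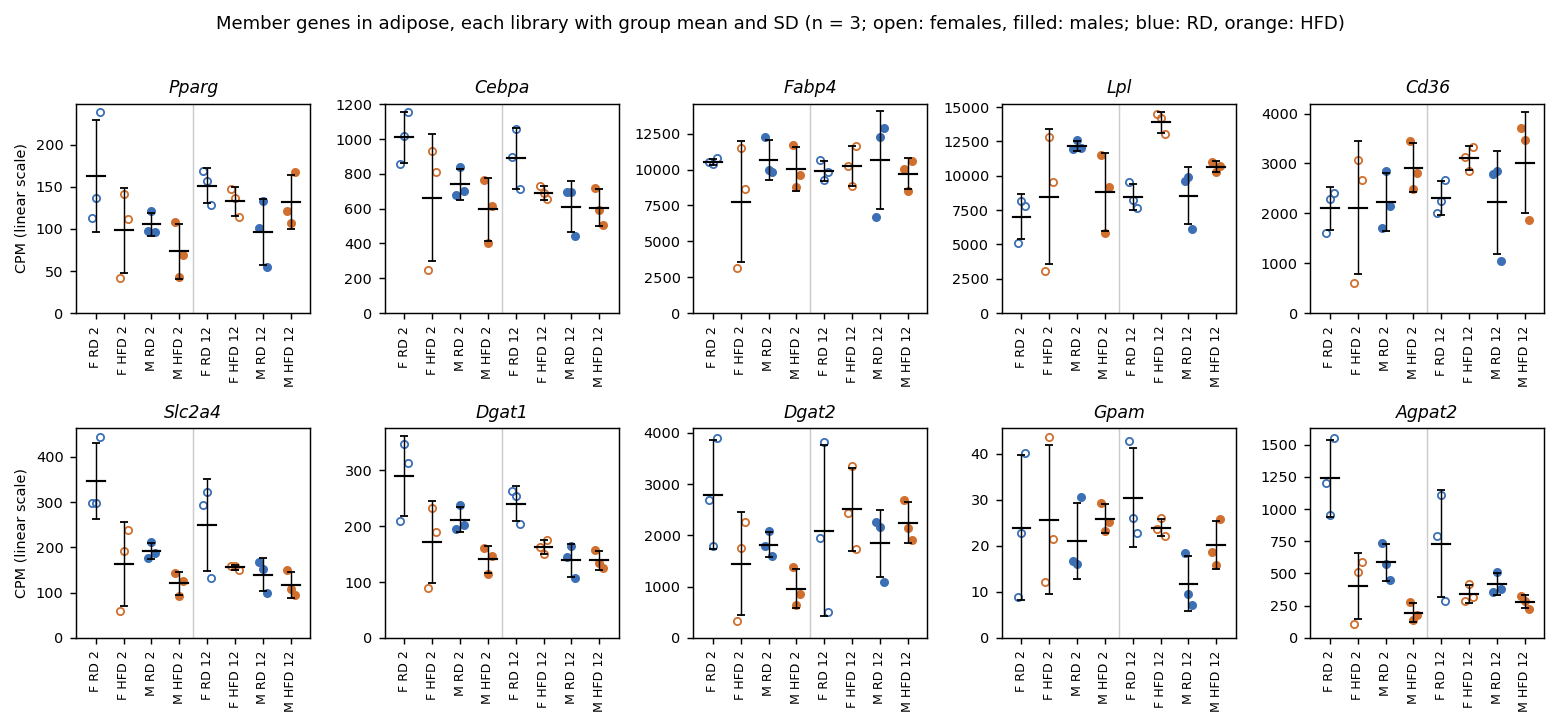
Levels of the 10 genes in adipose tissue in CPM on a linear scale, 1 panel a gene, by group (F or M, RD or HFD, weeks on diet). Points are libraries, bars the mean and SD of 3. HFD female 1 at 2 weeks is the lowest library for Fabp4 (3162 CPM), Lpl (3100 CPM), Cd36 (596 CPM) and Agpat2 (111 CPM). It is also the lowest for Slc2a4 (59.7 CPM), Dgat1 (89.8 CPM) and Pparg (42.3 CPM). The lowest values of Cebpa (248 CPM) and Dgat2 (322 CPM) are of the same group, and that of Gpam (7.16 CPM) of RD males at 12 weeks.

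The 4 diet comparisons use different libraries on both sides, so their mean was tested as a contrast of the same fit, a test added after the separate results were seen. With it edgeR called 3 members, all lower on HFD, beside 28.2% of 18325 genes called, a share close to that of the members. Agpat2 had 288 to 1554 CPM in the 12 RD libraries (median 656) and 111 to 586 CPM in the 12 HFD libraries (median 286). It was lower by 1.22 ± 0.24 on the log2 scale, 2.33-fold (adjusted p = 0.0017). Slc2a4 (chromosome 11, 69942539 to 69948188, minus strand) had 99.2 to 444 CPM on RD (median 200) and 59.7 to 239 CPM on HFD (median 147), and fell by 0.67 ± 0.19, 1.60-fold (adjusted p = 0.014). Dgat1 (chromosome 15, 76502015 to 76511953, minus strand) had medians of 207 and 154 CPM, and fell by 0.48 ± 0.13, 1.40-fold (adjusted p = 0.012). The RD and HFD libraries of each gene overlapped. Without the 4 libraries that stand apart the 3 calls remained, at -1.05, -0.57 and -0.41, while the genes called fell in number from 5174 of 18325 to 3158 of 19154. RD male 7 was then the only RD male library at 2 weeks. The RD males at 12 weeks stayed in, with 3624 to 5473 CPM of epididymis markers against 2.26 to 8.31 CPM in the HFD males. In the mean contrast of all libraries 11 of 12 macrophage markers, 5 of 8 endothelium markers and 4 of 10 adipose progenitor markers were higher on HFD. The part of all these markers in the 3 lower members was not tested.

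The other 7 members gave no call in the mean diet contrast in adipose tissue, and their 95% intervals, approximate as they rest on the standard errors, are given instead. Fabp4 had 6721 to 12922 CPM on RD and 3162 to 11740 CPM on HFD, with a log2 difference of -0.15 (95% interval -0.50 to 0.19). The interval was -0.66 to 0.17 for Pparg, -0.68 to 0.04 for Cebpa, -0.17 to 0.59 for Lpl and -0.15 to 0.79 for Cd36. It was wider for Dgat2, at -0.97 to 0.30, and for Gpam, at -0.30 to 0.71. Lpl and Cd36, the uptake genes, had positive differences (0.21 and 0.32), and the regulators Pparg and Cebpa negative ones (-0.25 and -0.32), none of them past the threshold. Without the 4 libraries that stand apart Lpl was at 0.36 ± 0.13 (edgeR unadjusted p = 0.017, adjusted p = 0.078), Fabp4 at -0.01, Gpam at 0.41, Pparg at -0.14 and Dgat2 at -0.20. Lpl in 12-week females had 9519, 8238 and 7654 CPM on RD and 14480, 14184 and 13007 CPM on HFD. Those groups did not overlap, with a log2 difference of 0.71 ± 0.36 (edgeR adjusted p = 0.38).

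Pparg and Cebpa in single adipose groups varied as much within a group as between diets. In 12-week males Pparg had 101, 133 and 55.0 CPM on RD and 121, 107 and 168 CPM on HFD (0.45, 95% interval -0.38 to 1.29). In 2-week females it had 113, 137 and 239 CPM on RD and 42.3, 141 and 112 CPM on HFD. Both pairs overlapped, and the lowest value was that of HFD female 1. Cebpa had 897, 1060 and 712 CPM in 12-week RD females and 732, 691 and 653 CPM in HFD females, with HFD female 3 above RD female 8. Dgat2 was uneven within groups, at 1952, 3828 and 496 CPM in 12-week RD females.

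**Figure D2:**
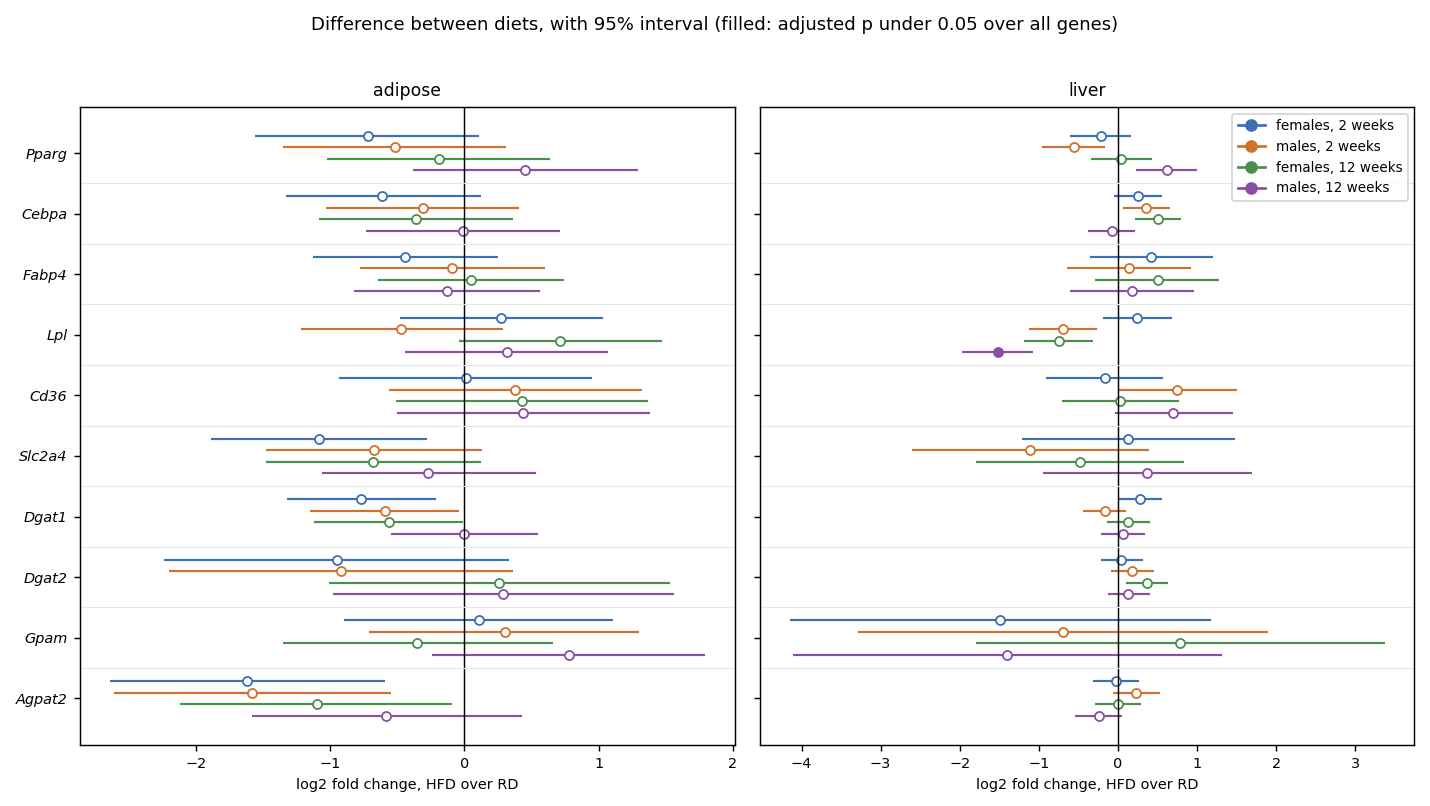
Log2 fold change of HFD over RD for each gene in adipose tissue (left) and liver (right), 1 colour for each sex and time, with 95% intervals. Lpl in liver of males at 12 weeks (-1.52) is the filled point, called over all genes; Agpat2 lies below 0 in all 4 adipose comparisons, and the horizontal scales of the panels differ.

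Whether the diet difference depended on sex or time in adipose tissue was tested as an interaction. By edgeR no member was called for sex at 2 weeks (0% of genes called), sex at 12 weeks (1.25%), time in females (0.0709%) or time in males (5.6%). With all libraries and no block, no member had an unadjusted p under 0.05 or a DESeq2 call in any of the 4 tests. Of all 18325 genes, 1246, 3487, 2273 and 4261 had such a p by edgeR, in the same order. With the library number as a block, edgeR's unadjusted p for sex at 12 weeks was 0.023 for Gpam (-1.21) and 0.032 for Dgat1 (-0.58). For time in males that p was 0.026 for Dgat1 (0.61), and the adjusted p were 0.21, 0.24 and 0.16. Lpl had a female minus male diet difference of 0.74 at 2 weeks, and 0.96 without the 4 libraries that stand apart. For Agpat2 the 95% interval of the female minus male diet difference ran from -1.45 to 1.38 at 2 weeks and from -1.94 to 0.89 at 12 weeks. With 3 libraries a group these intervals are wide, and differences within those bounds are not excluded.

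Females and males were compared in adipose tissue on each diet and at each time. No member was called by edgeR in any of the 4 comparisons, beside 4.28% of genes on RD and 3.8% on HFD at 2 weeks and 10.6% and 2.85% at 12 weeks. Without the 4 libraries that stand apart the genes called went from 785 to 160 on RD and from 696 to 171 on HFD at 2 weeks, and from 1943 to 3844 on RD at 12 weeks. With all libraries, 3583 and 3793 of 18325 genes had an unadjusted p under 0.05 by edgeR at 2 weeks, RD before HFD. At 12 weeks 5952 and 2541 had one. Of the members, 3 and 1 had one at 2 weeks and 3 and 0 at 12 weeks. DESeq2 called none except Dgat1 and Gpam on RD at 12 weeks, and edgeR called the same 2 without the 4 libraries that stand apart. Dgat1 had 263, 255 and 204 CPM in the RD females of that time and 145, 165 and 107 CPM in the RD males, a log2 difference of 0.79 ± 0.27 (edgeR adjusted p = 0.06, and 0.013 without the 4 libraries). Gpam had 42.7, 26.0 and 22.7 CPM in these females and 18.5, 9.53 and 7.16 CPM in these males, a log2 difference of 1.37 ± 0.49 (adjusted p = 0.07, and 0.048 without the 4). Neither gene's groups overlapped. The RD males of that time are those with 3624 to 5473 CPM of epididymis markers, and the part of these in the result was not tested.

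The mean of the 4 sex comparisons, also added after the separate results were seen, called the same 3 genes as the mean diet contrast and uses the same libraries. Agpat2 was higher in females by 0.80 ± 0.24 (1.75-fold, edgeR adjusted p = 0.02), Slc2a4 by 0.63 ± 0.19 (1.55-fold, adjusted p = 0.02) and Dgat1 by 0.44 ± 0.13 (1.35-fold, adjusted p = 0.021), beside 24.5% of genes called. Median levels in 12 female and 12 male libraries were 551 and 342 CPM for Agpat2, 216 and 147 CPM for Slc2a4 and 207 and 152 CPM for Dgat1. For each of the 3 the libraries of the sexes overlapped, and the RD females at 2 weeks were the group with the highest mean. Of the adipose markers, 7 of 10 progenitor and 6 of 8 mesothelium genes were higher in females with 1 mesothelium gene lower, and 5 of the 13 epididymis genes tested were lower, and their part in the result was not tested. Of the 7 members not called, Pparg had a difference of 0.43 ± 0.20 (unadjusted p = 0.044, adjusted p = 0.13), and Gpam (0.45), Dgat2 (0.39) and Cebpa (0.33) also had positive values. Fabp4 was at -0.10 (95% interval -0.45 to 0.24), Lpl at -0.12 (-0.50 to 0.25) and Cd36 at -0.12 (-0.59 to 0.35).

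Across the 24 adipose libraries the log2 levels of the 10 genes were positively correlated in all 45 pairs, with a median Pearson's r of 0.49. Slc2a4 and Agpat2 had the highest r, 0.93, and Cebpa with Slc2a4, Slc2a4 with Dgat1 and Cebpa with Dgat1 had 0.92, 0.92 and 0.90. Cd36 and Agpat2 had the lowest, 0.09. Libraries share their scaling and their cell makeup. With the group means removed all 45 pairs were positive, with a median r of 0.70. Without the 4 libraries that stand apart, 32 of 45 pairs were positive with a median r of 0.23, Slc2a4 and Agpat2 kept 0.92, and Cd36 and Agpat2 had -0.33. Of the other members Lpl was closest to Cd36 (r = 0.76, and 0.72 without the 4 libraries). With the group means removed and all 24 libraries kept, Lpl was closer to Cebpa (0.94), Dgat1 (0.94) and Pparg (0.89) than to Cd36 (0.84). Without the 4 libraries, and with the group means kept, Lpl had an r of -0.06, -0.15 and 0.23 with Cebpa, Dgat1 and Pparg. In liver 21 of 45 pairs were positive, with a median r of -0.02. Cd36 had an r of -0.74 with Agpat2 and 0.62 with Dgat2, and Pparg -0.72 with Agpat2. After the group means were removed these became -0.17, 0.21 and 0.00, so differences between the groups carried them.

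**Figure D3:**
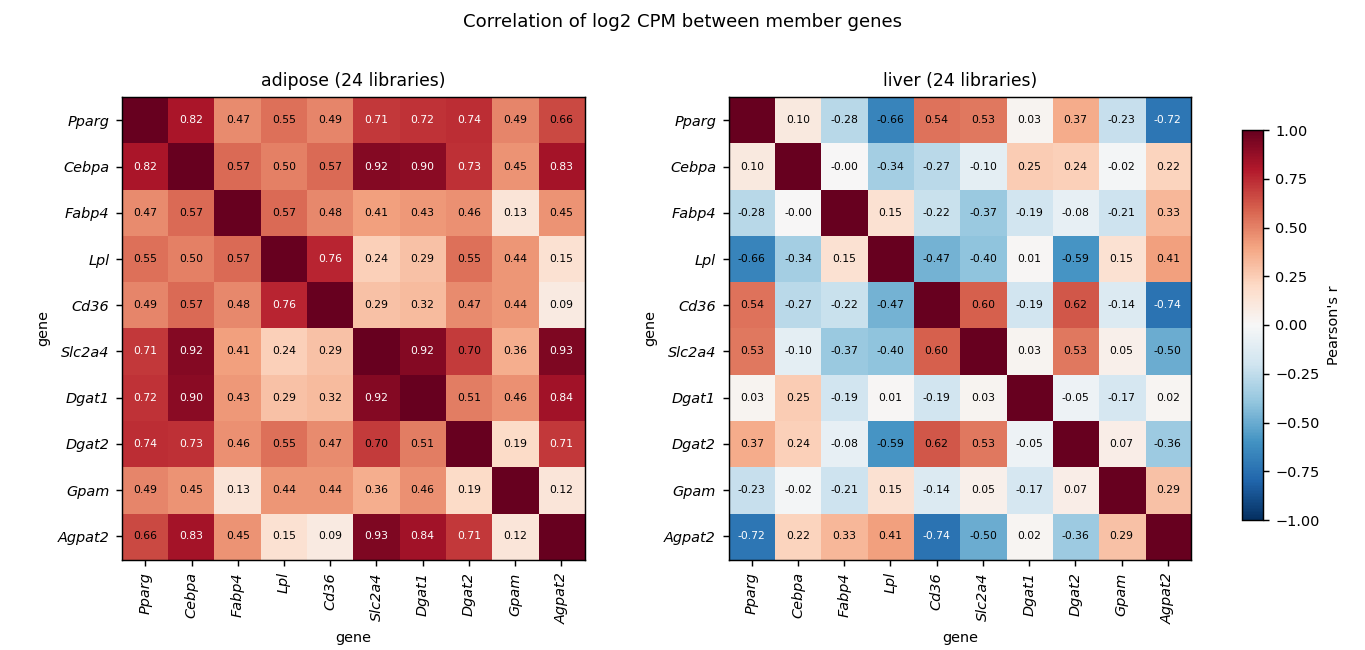
Pearson's r of log2 CPM between the 10 genes over 24 libraries in adipose tissue (left) and liver (right); red is positive and blue negative. All 45 adipose pairs are above 0, up to 0.93 for Slc2a4 with Agpat2, and the liver pairs run from -0.74 to 0.62.

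Genes whose adipose profile over the 24 libraries was most like Pparg were Ywhag (r = 0.907), Mfsd8, Pmp22, Rims4 and Cirh1a among 9690 genes compared. For Cd36 they were Sdpr (r = 0.912), Serinc1, Fzd4, Ccny and Ano10, and for Dgat2 Phlda3 (r = 0.956), Cyb5b, Unc119, Sod2 and Mtap. In liver the profiles nearest to Pparg were B4galt5 (r = 0.853), Gbe1, Nfe2l2, Dnajb2 and Slc1a2. Those nearest to Cd36 were Enpp1 (r = 0.877), Hpgd, Sult1d1, Slc16a7 and Acss3. Dgat2 had lower maxima there, with Wipf3 (r = 0.751), Pgpep1, Acy1, Srebf1 and Snx9, of which Srebf1 encodes a transcription factor of lipid synthesis.

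In liver the diet comparisons called 1 member, Lpl in males at 12 weeks. Lpl (chromosome 8, 68880491 to 68907448, plus strand) had 26.5, 34.4 and 24.4 CPM in RD males 2, 3 and 4 of that cohort and 9.89, 7.08 and 12.8 CPM in HFD males 2, 3 and 4. Every HFD library lay below every RD library. Lpl fell by 1.52 ± 0.22 on the log2 scale (2.87-fold, edgeR adjusted p = 0.002), beside 1.12% of 15897 genes called. Leaving out any of the 6 libraries kept the call, with values from -1.77 to -1.33. In these males the 12 macrophage markers summed to 303 to 351 CPM on RD and 151 to 278 CPM on HFD (4 of 12 lower), and the 8 endothelium markers to 122 to 150 and 67.6 to 100 CPM (3 of 8 lower). Of the adipocyte genes over all liver libraries, Plin1 was at 0, while Adipoq reached 2.62 CPM, Cfd 4.39 CPM and Cidec 54.3 CPM. The part of all these markers in the fall of Lpl was not tested.

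Lpl in the other liver groups gave no call in its own comparison. The 2-week males had 53.6, 50.5 and 46.4 CPM on RD and 30.4, 31.5 and 31.1 CPM on HFD (log2 difference -0.69 ± 0.21, adjusted p = 0.17). The 12-week females had 40.3, 19.7 and 34.6 CPM on RD and 18.2, 18.5 and 19.7 CPM on HFD (-0.75 ± 0.21, adjusted p = 0.93, where 1 gene in all was called). In both, no HFD library exceeded an RD library, and HFD female 7 and RD female 7 of the 12-week cohort both rounded to 19.7 CPM. The 2-week females had 29.9, 26.6 and 28.1 CPM on RD and 34.7, 27.5 and 37.9 CPM on HFD, with overlap and a positive difference of 0.24 ± 0.21. In the mean of the 4 comparisons Lpl was lower by 0.68 ± 0.11 (1.60-fold, adjusted p = 0.0024), the 1 member called beside 1.34% of genes. None of the 12 macrophage and 8 endothelium markers was called in that mean.

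The other members gave no call by diet in liver. Called genes made up 0.252% of all genes in females and 0.34% in males at 2 weeks and 0.00629% in females at 12 weeks. By edgeR 0 members were called in these 3 comparisons, with 1, 3 and 3 at an unadjusted p under 0.05 and none by DESeq2. At that unadjusted p were 1590, 1686 and 686 of 15897 genes. Pparg differed in sign between the male cohorts. It had 5.01, 5.67 and 4.42 CPM in 2-week RD males and 3.69, 3.29 and 3.24 CPM in HFD males, and 9.11, 8.09 and 7.56 against 13.3, 10.3 and 14.4 CPM at 12 weeks. The HFD libraries were all below the RD libraries at 2 weeks and all above them at 12 weeks. The log2 differences were -0.56 ± 0.19 (edgeR adjusted p = 0.23) and 0.62 ± 0.18 (adjusted p = 0.13). Their difference, tested as an interaction, was 1.18 ± 0.26 (adjusted p = 0.056 with edgeR and 0.0041 with DESeq2), beside 0.352% of genes called by edgeR. In the females the differences were -0.22 ± 0.19 and 0.04 ± 0.18.

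Cebpa, which in hepatocytes sustains metabolic gene expression, had positive diet differences in 3 of the 4 liver groups. The 12-week females had 262, 298 and 224 CPM on RD and 383, 311 and 418 CPM on HFD, without overlap (0.50 ± 0.14, edgeR adjusted p = 0.93). In the mean of the 4 comparisons the difference was 0.26 ± 0.07, with an adjusted p of 0.075 by edgeR and 0.017 by DESeq2. Cd36 in males had 11.8, 14.5 and 4.27 CPM on RD and 19.1, 23.4 and 8.85 CPM on HFD at 2 weeks, and 33.9, 30.0 and 37.0 against 62.6, 55.1 and 46.7 CPM at 12 weeks. The 12-week groups did not overlap, and neither difference was called (0.75 ± 0.36 and 0.70 ± 0.36, adjusted p = 0.47 and 0.41). In females Cd36 differed by -0.17 and 0.03. For the enzymes of triglyceride synthesis the 95% interval of the mean diet difference was -0.06 to 0.21 for Dgat1, 0.05 to 0.31 for Dgat2 (adjusted p = 0.18) and -0.16 to 0.13 for Agpat2. It was -0.08 to 0.70 for Fabp4, and wider for Slc2a4 (-0.95 to 0.41) and Gpam (-2.01 to 0.61), whose liver levels are low or uneven.

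The interaction tests in liver called no member with edgeR. For sex, 0% of genes were called at both times, and 2 members at 2 weeks and 3 at 12 weeks had an unadjusted p under 0.05. For time in females 0% of genes were called and 1 member had an unadjusted p under 0.05. For time in males 4 members had one. Of all 15897 genes, 1511, 1104, 544 and 1741 had one by edgeR, in the same order. DESeq2 called no member in the first 3 of these tests and Pparg alone in the last. Lpl had female minus male diet differences of 0.94 ± 0.30 at 2 weeks and 0.77 ± 0.30 at 12 weeks (adjusted p = 0.31 and 0.60). The larger fall of Lpl in males is therefore not shown to differ from females.

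**Figure D4:**
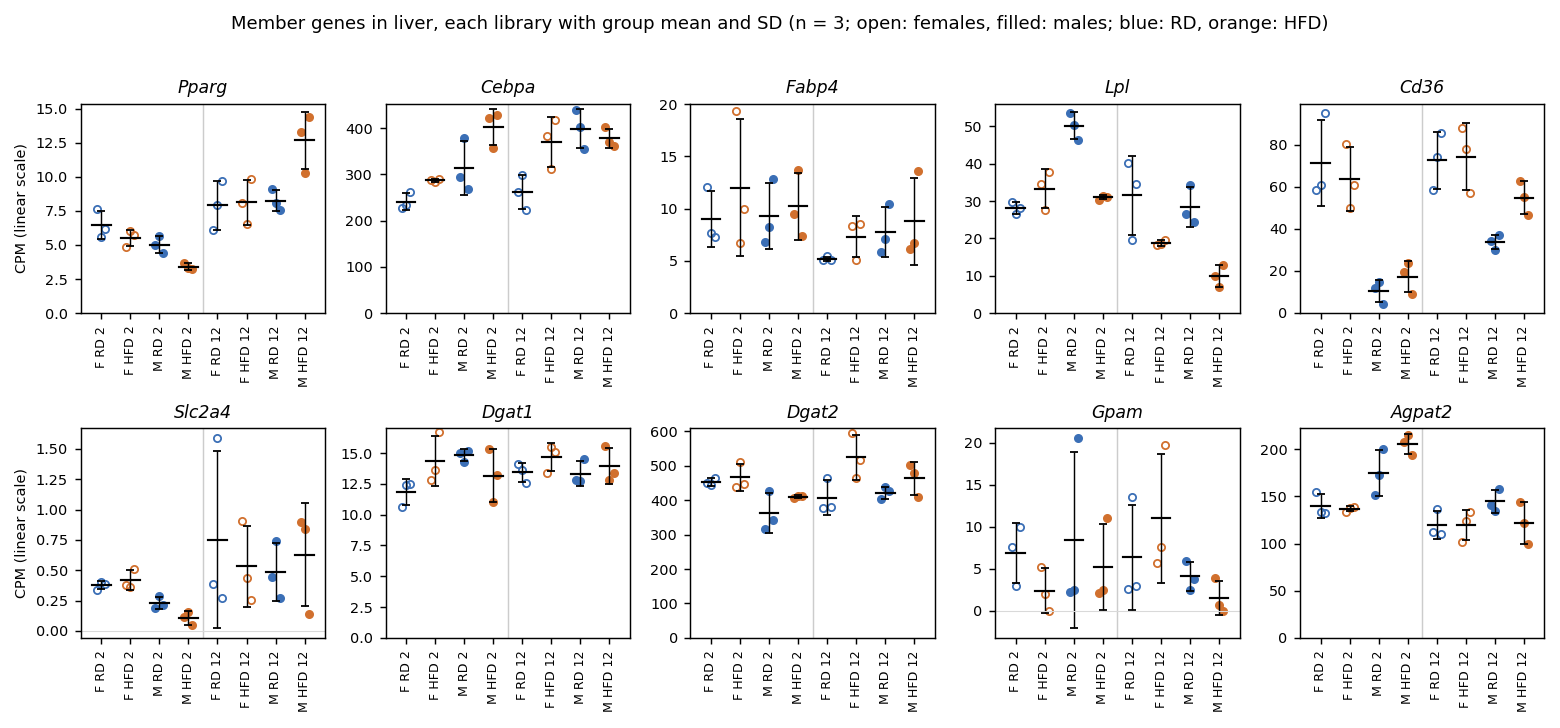
Levels of the 10 genes in liver in CPM on a linear scale, 1 panel a gene, by group (F or M, RD or HFD, weeks on diet). Points are libraries, bars the mean and SD of 3; Cd36 is lowest in RD males at 2 weeks (4.27 to 14.5 CPM), and Lpl in HFD males at 12 weeks (7.08 to 12.8 CPM).

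Sex differences were the main source of calls among these genes in liver, as they were over all genes tested. Single sex comparisons called 8.81% to 17.3% of genes and single diet comparisons 0.00629% to 1.12%, so this is not particular to these genes. On RD at 2 weeks edgeR called 2 members beside 9.81% of genes, Cd36 and Lpl. Cd36 (chromosome 5, 17781690 to 17888801, minus strand) had 58.2, 60.7 and 95 CPM in RD females 1, 2 and 4 and 11.8, 14.5 and 4.27 CPM in RD males 6, 7 and 8. Every female library was above every male library, and Cd36 was higher in females by 2.81 ± 0.38 on the log2 scale (7.00-fold, adjusted p = 6.1e-05). Lpl had 29.9, 26.6 and 28.1 CPM in these females and 53.6, 50.5 and 46.4 CPM in these males, without overlap. It was lower in females by 0.83 ± 0.21 (adjusted p = 0.016). That call was lost without female 2 (adjusted p = 0.061), female 4 (0.058) or male 6 (0.051).

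On HFD at 2 weeks 4 members were called beside 12.4% of genes, 2 in each direction. Cd36 had 80.1, 49.8 and 60.7 CPM in females and 19.1, 23.4 and 8.85 CPM in males, and was higher in females by 1.89 ± 0.37 (adjusted p = 0.0019). Pparg had 4.85, 6.00 and 5.71 CPM in females and 3.69, 3.29 and 3.24 CPM in males, and was higher in females by 0.70 ± 0.19 (adjusted p = 0.018). Cebpa had 287, 283 and 291 CPM in females and 423, 357 and 428 CPM in males, and was lower in females by 0.49 ± 0.14 (adjusted p = 0.028). Agpat2 had 134, 138 and 139 CPM in females and 208, 215 and 194 CPM in males, and was lower by 0.58 ± 0.14 (adjusted p = 0.0089). None of the 4 genes overlapped between the sexes. The call of Pparg was lost without female 2, male 13 or male 14 (adjusted p = 0.061, 0.058 and 0.068), and that of Cebpa without female 1 or 2 or male 12 or 14 (0.063, 0.071, 0.08 and 0.10).

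At 12 weeks Cd36 was not among the genes called, and Pparg and Lpl were called on HFD. Pparg on HFD had the opposite sign at 2 weeks, while Lpl went from 0.11 to 0.92 on HFD and from -0.83 to 0.15 on RD, differences that span the cohorts and were not tested. On RD Cebpa was the 1 member called, beside 8.81% of genes. It had 262, 298 and 224 CPM in females and 440, 403 and 355 CPM in males, and was lower in females by 0.61 ± 0.14 (edgeR adjusted p = 0.0098, lost without female 8 at 0.072 or male 2 at 0.056). Cd36 had 58.3, 74.1 and 85.4 CPM in RD females and 33.9, 30.0 and 37.0 CPM in RD males, without overlap (1.11 ± 0.36, adjusted p = 0.059 with edgeR and 0.019 with DESeq2). On HFD 2 members were called beside 17.3% of genes. Lpl had 18.2, 18.5 and 19.7 CPM in females and 9.89, 7.08 and 12.8 CPM in males, and was higher in females by 0.92 ± 0.21 (adjusted p = 0.0052). Pparg had 8.07, 6.53 and 9.81 CPM in females and 13.3, 10.3 and 14.4 CPM in males, and was lower in females by 0.64 ± 0.18 (adjusted p = 0.022, lost without female 3 or 6 or male 2 or 4 at 0.064, 0.11, 0.057 and 0.11). In that comparison 7 of 12 macrophage and 5 of 8 endothelium markers were higher in females, and their part in these results was not tested.

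**Figure D5:**
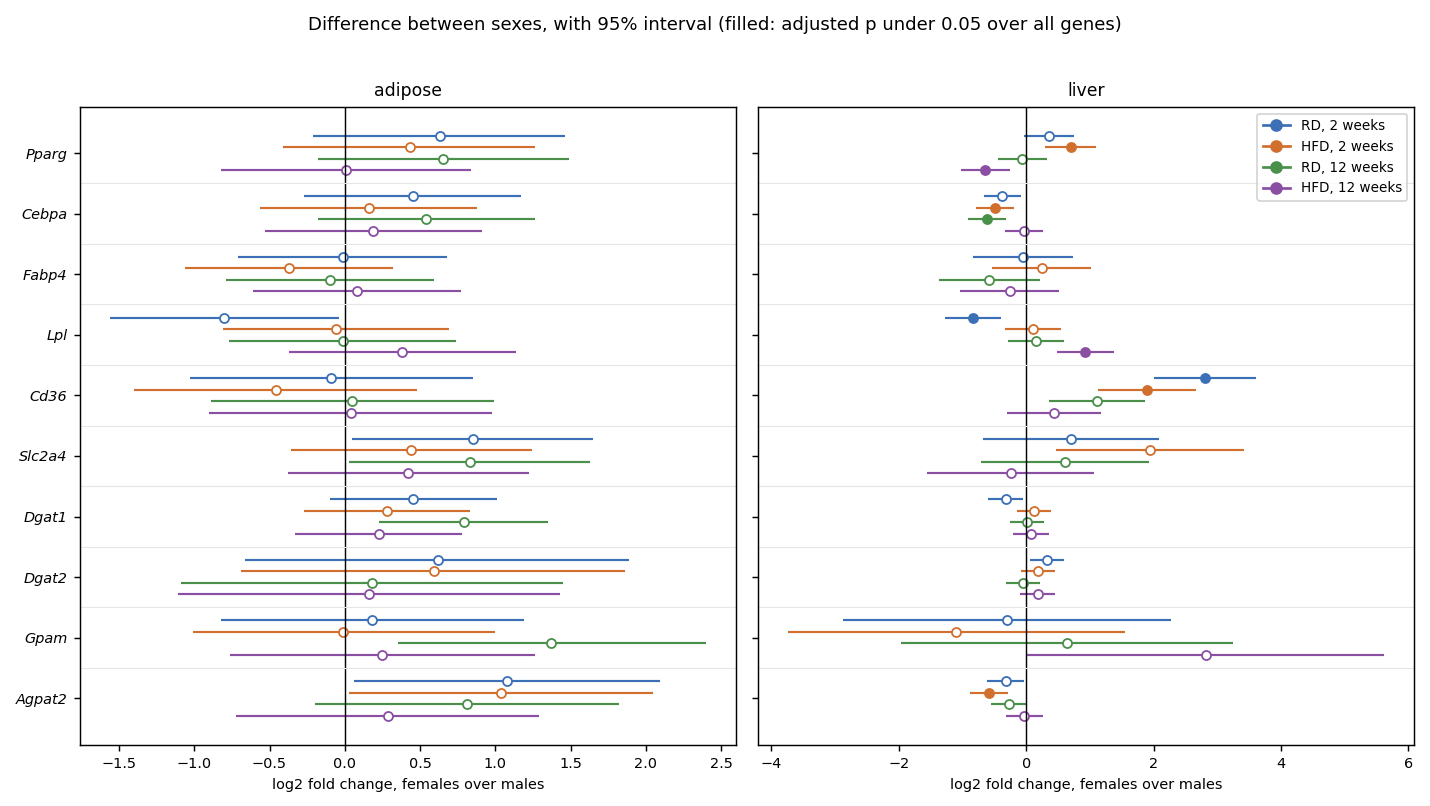
Log2 fold change of females over males for each gene in adipose tissue (left) and liver (right), 1 colour for each diet and time, with 95% intervals; filled points are called over all genes. Cd36 in liver runs from 2.81 on RD at 2 weeks to 0.44 on HFD at 12 weeks, Gpam in liver has the widest intervals, and the horizontal scales of the panels differ.

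The level of Cd36 in female liver stayed within 49.8 to 95 CPM over all 12 libraries, and that in male liver ran from 4.27 to 62.6 CPM. Group means in males were 10.2 and 17.1 CPM at 2 weeks and 33.6 and 54.8 CPM at 12 weeks, RD before HFD. The sex difference went from 2.81 and 1.89 at 2 weeks to 1.11 and 0.44 ± 0.35 (edgeR adjusted p = 0.43) at 12 weeks. The 2 cohorts differ in age as well as in time on the diet, and this order was not tested. In the mean of the 4 sex comparisons, added after the separate results were seen, 3 members were called beside 39.2% of genes. That share is above the members' own, so their number is no result about this set. Cd36 was higher in females by 1.56 ± 0.18 (2.95-fold, adjusted p = 1.9e-06), Cebpa lower by 0.38 ± 0.07 (1.30-fold, adjusted p = 0.00031) and Agpat2 lower by 0.30 ± 0.07 (1.23-fold, adjusted p = 0.0019). Fabp4 (-0.16 ± 0.19), Lpl (0.09 ± 0.11), Pparg (0.09 ± 0.09), Dgat1 (-0.03 ± 0.07), Gpam (0.52 ± 0.62), Dgat2 (0.16 ± 0.06) and Slc2a4 (0.76 ± 0.33) were not called. Slc2a4 on HFD at 2 weeks had 0.379, 0.36 and 0.512 CPM in females and 0.115, 0.156 and 0.0462 CPM in males, without overlap (1.95 ± 0.71, adjusted p = 0.078 with edgeR and 0.043 with DESeq2). In the mean contrast 9 of 12 macrophage markers, 6 of 8 endothelium markers, 7 of 10 genes of the progenitor list and 5 of 8 B and T cell markers were higher in females, and their part in these results was not tested.

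Other genes of the same pathways were counted on lists drawn up for this set. In adipose tissue of males at 12 weeks 28.2% of all genes were called, and the lists are at or near that share or below it, so their counts are no result about these pathways. Of the lists, 3 of 25 other adipocyte genes rose and 2 fell on HFD, with a median of 0.18. Lep, the satiety hormone leptin, rose from 982 ± 126 to 3379 ± 179 CPM (SD, n = 3; 1.78 ± 0.49, edgeR adjusted p = 0.014), and Cfd, the complement factor adipsin, fell from 4015 ± 1199 to 557 ± 116 CPM (-2.85 ± 0.46). Cebpb, a C/EBP factor of early adipocyte differentiation, rose by 1.41 ± 0.24. Of 24 other fatty acid uptake and binding genes 4 rose and 3 fell (median -0.02). They included Vldlr, a lipoprotein receptor (0.91 ± 0.23), Angptl4, an inhibitor of lipoprotein lipase (1.25 ± 0.26), and the acyl-CoA synthetase Acsl5 (0.63 ± 0.12). Of 17 other glycerolipid synthesis genes 1 rose and 2 fell (median 0.14), with Mogat1, a monoacylglycerol acyltransferase, at -1.79 ± 0.38, the glycerol kinase gene Gyk at -2.36 ± 0.61 and Agpat4 at 0.69 ± 0.24. Of 16 other glucose uptake genes 1 fell, the glucose transporter gene Slc2a3 (-2.09 ± 0.42, median 0.06). In this comparison 11 of 12 macrophage markers rose, with summed levels of 941 to 1184 CPM on RD and 3237 to 4450 CPM on HFD, while 8 of 12 epithelium markers fell. Epididymis markers summed to 3624 to 5473 CPM on RD and 2.26 to 8.31 CPM on HFD. Progenitor markers summed to 1905 to 3450 and 4098 to 4792 CPM (5 of 10 higher, 1 lower), endothelium markers to 246 to 853 and 900 to 1073 CPM (1 of 8 higher) and hepatocyte markers to 2800 to 4180 and 353 to 674 CPM (1 of 10 lower), RD before HFD. Their part in these values was not tested.

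In 12-week females 2.08% of all genes were called, and 1 gene passed on each of the 4 lists. Lep rose on HFD from 272 ± 83.3 to 2733 ± 475 CPM (3.33 ± 0.52, edgeR adjusted p = 0.0018) and Vldlr from 82.8 ± 8.69 to 200 ± 16.9 CPM (1.27 ± 0.23). Mogat1 fell from 20.5 ± 7.60 to 5.66 ± 0.181 CPM (-1.85 ± 0.39). Slc2a2, a glucose transporter of liver and pancreas, had 0.540 ± 0.206 and 3.00 ± 2.31 CPM (2.47 ± 0.63). In these females endothelium markers summed to 664 to 901 CPM on RD and 1174 to 1270 CPM on HFD, and macrophage markers to 920 to 1701 and 1670 to 2038 CPM, with no single marker of the 8 and 12 called by edgeR. Their part in these values was not tested. In liver of 12-week males Cidec, a lipid droplet protein, rose from 5.98 ± 2.34 to 27.4 ± 23.6 CPM (2.20 ± 0.47, adjusted p = 0.028) and Lipe, the hormone-sensitive lipase, from 10.7 ± 1.44 to 18.7 ± 2.56 CPM (0.80 ± 0.19). Agpat9, listed today as Gpat3 and an isoenzyme of GPAM, rose from 2.24 ± 1.16 to 11.1 ± 3.69 CPM (2.30 ± 0.45). These were 2 of 21 adipocyte genes tested and 1 of 17 glycerolipid synthesis genes, beside 1.12% of all genes called.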

How the data were processed

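The deposited table holds estimated counts per gene symbol for 48 libraries, and the submitters' processing notes list the build GRCm38 and the tools kallisto, DESeq2 and edgeR but give neither version nor role. Per the labels' protocols, libraries were made from 200 ng of total RNA with a stranded polyA kit. Expected counts as deposited by the authors were rounded to whole numbers, filtered by filterByExpr and scaled by TMM. The 24 libraries of each tissue were fitted as 8 groups with edgeR 4.0.16's quasi-likelihood test in R 4.3.3, and all 48 for the tissue contrast. Calls are Benjamini-Hochberg adjusted p under 0.05 over all genes tested. SEs are the log2 fold change over the square root of F. All 10 genes passed the filter in every fit.

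The members and the lists were chosen with earlier results of these data known. The contrasts averaging 4 comparisons, the correlations without 4 libraries and those of deviations from group means were chosen after seeing the data. Alternatives were DESeq2 1.42.0, median-of-ratios scaling, no filter, the library number as a block, without the 4 adipose libraries that stand apart, and each library left out. The naming rule takes all members; single comparisons without a call are given in part. Of the other lists, up to 3 called genes with the smallest p are named for each 12-week diet comparison. Lists held 165 symbols, 3 of them under older names. The genes most alike were the 5 with the highest Pearson's r, given for Pparg, Cd36 and Dgat2. Positions and lengths come from GENCODE M21 (GRCm38). The test was checked on simulated counts. Same-numbered RD and HFD libraries deviated together in adipose tissue of 12-week males (r = 0.108, 0.134 and 0.154), which pairs them by the rule used; in liver of these males r was -0.112, 0.05 and 0.127.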

Additional observations from a re-analysis of the deposited data

How the results depend on the processing

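Of 290 results of a member in a comparison, 29 were called, and each of the 29 was called by DESeq2, with median-of-ratios scaling and with no filter; no called value changed sign. DESeq2 called 3 members rather than 0 for diet in adipose tissue of 2-week females, 2 rather than 0 for sex in adipose tissue on RD at 12 weeks (also 2 without the 4 libraries that stand apart), 3 rather than 2 for sex in liver on RD and 5 rather than 4 on HFD at 2 weeks, 2 rather than 1 on RD at 12 weeks, 1 rather than 0 for the change of the diet difference with time in liver of males, 2 rather than 1 for the mean diet contrast in liver and 4 rather than 3 for its mean sex contrast. With each library left out in turn, the number of members called ran from 0 to 1 for diet in adipose tissue of 2-week females, for sex in adipose tissue on RD at 12 weeks and for sex in liver on RD at 12 weeks. It ran from 1 to 2 for sex in liver on RD at 2 weeks and on HFD at 12 weeks and for the mean diet contrast in liver, from 2 to 4 for sex in liver on HFD at 2 weeks, from 3 to 5 for the mean sex contrast in adipose tissue and from 3 to 4 for that in liver. The cause was not tested. With the replicate block, the number of members called stayed at 0 for adipose tissue of 12-week males and of 2-week females, 1 for liver of 12-week males, 3 for the mean diet contrast in adipose tissue and 1 for that in liver, and all 14 called values it was run on kept their call; it was not run for the sex comparisons. Counts over all genes differed more between the tools, DESeq2 before edgeR. For diet in adipose tissue they were 1504 and 43 in 2-week females, 130 and 0 in 2-week males and 1002 and 381 in 12-week females. For sex in adipose tissue they were 1986 and 785 on RD and 1918 and 696 on HFD at 2 weeks, and 3857 and 1943 on RD and 1174 and 522 on HFD at 12 weeks. For the adipose interactions they were 72 and 0 with sex at 2 weeks, 1364 and 229 with sex at 12 weeks, 317 and 13 with time in females and 2151 and 1027 with time in males. For diet in liver they were 180 and 40, 326 and 54, 17 and 1, and 451 and 178 in 2-week females, 2-week males, 12-week females and 12-week males, and 634 and 213 in the mean. For the liver interactions they were 129 and 0, 69 and 0, 5 and 0, and 326 and 56 in the same order as in adipose tissue. With 3 libraries a group, a result without a call does not show that there is no difference.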
